A study of Mus musculus with 6 samples.

Results

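MHC class II genes were measured in endothelial cells (ECs) of mouse lungs that carried breast cancer metastases. The genes are H2-Aa, H2-Ab1, H2-Eb1, H2-DMa, H2-DMb2, H2-Oa, Cd74, Ciita and Ctss, which cover class II chains, the invariant chain, peptide loading, the invariant chain protease and the transcriptional coactivator. All probe sets whose platform annotation gave a single gene symbol equal to 1 of these names were taken. This gave 19 probe sets for 9 of 9 genes, out of 45101 probe sets and 18194 genes on the array.

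The ECs came from NSG mice, an immunodeficient strain on a NOD background, aged 6 to 8 weeks. All mice had received MDA-MB-231-LM2 cells, a lung-metastatic derivative of a human breast cancer cell line, by the intravenous route. In shControl the cancer cells expressed a control short hairpin RNA, and in shTNC a hairpin against tenascin C (TNC), an extracellular matrix protein. Lungs were taken on day 20, and cells positive for CD31 were sorted after exclusion of cells with blood, epithelial, mesenchymal or cancer cell markers. Each group had 3 biological replicates with 1 Affymetrix array each, and no mice without cancer cells were among the 6 arrays. The hairpin acted in the injected human cells and not in the ECs, and NSG mice lack mature T cells, B cells and natural killer cells, which are major sources of interferon gamma. The labels do not say whether a replicate was 1 mouse or a pool. The comparison asks how class II transcripts of lung ECs differ when the cancer cells carry less TNC. The paper reports that TNC knockdown also reduced lung colonization by these cells. Metastatic load was not compared here, so less TNC and a lower load cannot be told apart.

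MHC class II molecules display peptides from the endocytic route to CD4+ T cells. An alpha and a beta chain assemble with the invariant chain, which fills the groove and guides the complex to endosomes. There, proteases such as cathepsin S trim the invariant chain to the fragment CLIP, and H2-DM exchanges CLIP for peptide under the restraint of H2-O. CIITA, a coactivator without DNA binding of its own, drives class II genes from proteins bound to the X and Y boxes of class II promoters. Dendritic cells, B cells and macrophages carry class II at all times, as do alveolar type 2 cells of the lung, while ECs carry it mainly under interferon gamma and in parts of the capillary bed.

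Of the members, 6 lie together on mouse chromosome 17 between positions 34092379 and 34316674 of RefSeq's GRCm38.p6 annotation. Ciita lies on chromosome 16 and Ctss on chromosome 3. RefSeq promoter windows, each of 300 bases with 250 before the annotated start, were at hand for 6 of the 9 members, and H2-Ab1, Cd74 and Ciita had none. They are of the reference genome and not of the NSG strain. The windows were searched on both strands for an X box core, written as C, any 4 bases and AAC, followed after 14 to 30 bases by the Y box core GATTGG. These letters and this spacing were chosen after the class II windows had been read, so the matches are a description. The stretches below are shown because they match these letters of the boxes through which CIITA is known to act. Whether proteins bind there was not tested. Capitals mark the X box match and then the Y box match, with the strand of the gene read 5′ to 3′.
H2-Aa, chr17:34287855-34287919, minus strand: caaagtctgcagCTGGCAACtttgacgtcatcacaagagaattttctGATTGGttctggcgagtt
H2-Eb1, chr17:34305761-34305824, plus strand: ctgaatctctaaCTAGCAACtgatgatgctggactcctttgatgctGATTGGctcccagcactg
H2-DMb2, chr17:34145111-34145175, plus strand: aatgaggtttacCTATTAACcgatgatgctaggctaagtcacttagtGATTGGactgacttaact
H2-Oa, chr17:34092288-34092352, plus strand: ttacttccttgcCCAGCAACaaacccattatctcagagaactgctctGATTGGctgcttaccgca
H2-DMb1, chr17:34153082-34153146, plus strand: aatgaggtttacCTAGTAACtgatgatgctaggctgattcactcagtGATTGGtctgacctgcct
H2-Ob, chr17:34238803-34238864, plus strand: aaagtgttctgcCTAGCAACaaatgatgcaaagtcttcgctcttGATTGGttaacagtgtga
H2-Eb2, chr17:34325528-34325591, plus strand: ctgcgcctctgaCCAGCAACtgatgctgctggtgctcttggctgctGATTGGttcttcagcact

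The last 3 belong to related genes: H2-DMb1 is the other DM beta gene, H2-Ob the beta chain of H2-O, and H2-Eb2 a second beta chain gene of the I-E locus. A match of the pair was thus found in 4 of the 6 members with a window and in all 3 related genes, against 282 of all 32851 promoter windows, or 0.858%. The Y box letters alone occurred in 16.1% of all windows and the X box letters alone in 81.6%. In the 7 stretches the matches were 24 to 27 bases apart. The X box match began between 79 bases upstream of the start, in H2-Oa, and 135 bases upstream, in H2-Eb2. H2-Oa held a further match of the pair. H2-DMa, with 2 windows, and Ctss had no such pair, which says only that these letters were not in those windows.

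**Figure D1:**
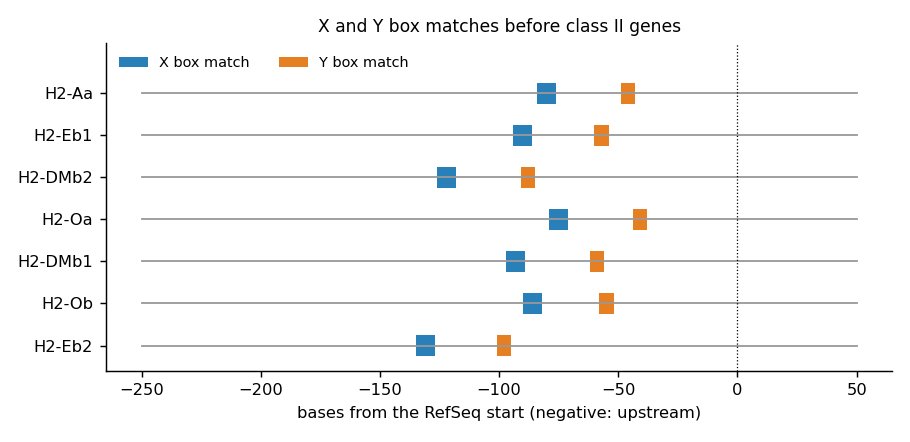
Position of the X box match (blue) and the Y box match (orange) in the promoter windows of 4 members and 3 related genes. The x axis gives bases from the RefSeq start, with negative values upstream, and each grey line is 1 window of 300 bases. The search asked for the X box first, so on the strand of the gene the Y box match always lies nearer to the start.

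The expression values are log2 levels as deposited, so that a difference of 1 is a doubling. Low values are often tied within an array, and near-background levels are therefore coarse. Genes for olfactory receptors, which ECs should lack, set the background: 95% of their 44 probe sets averaged under 7.48 over the 6 arrays, and a mean below that level is called near background. Of the members' probe sets, 15 lay above that level and 4 near it, and each of the 9 genes had at least 1 above it. A gene is represented by its probe set with the highest mean, and differences are shTNC minus shControl with the standard error (SE) from limma's moderated linear model, n = 3 arrays per group.

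Across the groups the class II genes differed little. In limma, none of the members reached an adjusted p of 0.05. The same was true of the whole array, with 0 of 45101 probe sets (0%) past that threshold and 5846 at an unadjusted p under 0.05. Of the 19 member probe sets, 15 had a higher mean in shTNC, against 47.4% of all probe sets. At an unadjusted p under 0.05, 2 were higher and 0 lower, against a background of 6.66% and 6.3%. By gene, 8 of 9 had a higher mean in shTNC, against 41.7% of all genes, with a median difference of 0.072, against -0.030 over all genes. The groups overlapped on the representative probe set of 8 genes and were apart for Ciita, with shTNC higher. Of all 18194 genes, 1339 were apart with shTNC higher and 2259 with shTNC lower, so 1 of 9 is not out of the ordinary. In sorted cells, a change in the number of class II-bearing cells and a change in RNA per cell cannot be told apart.

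**Figure D2:**
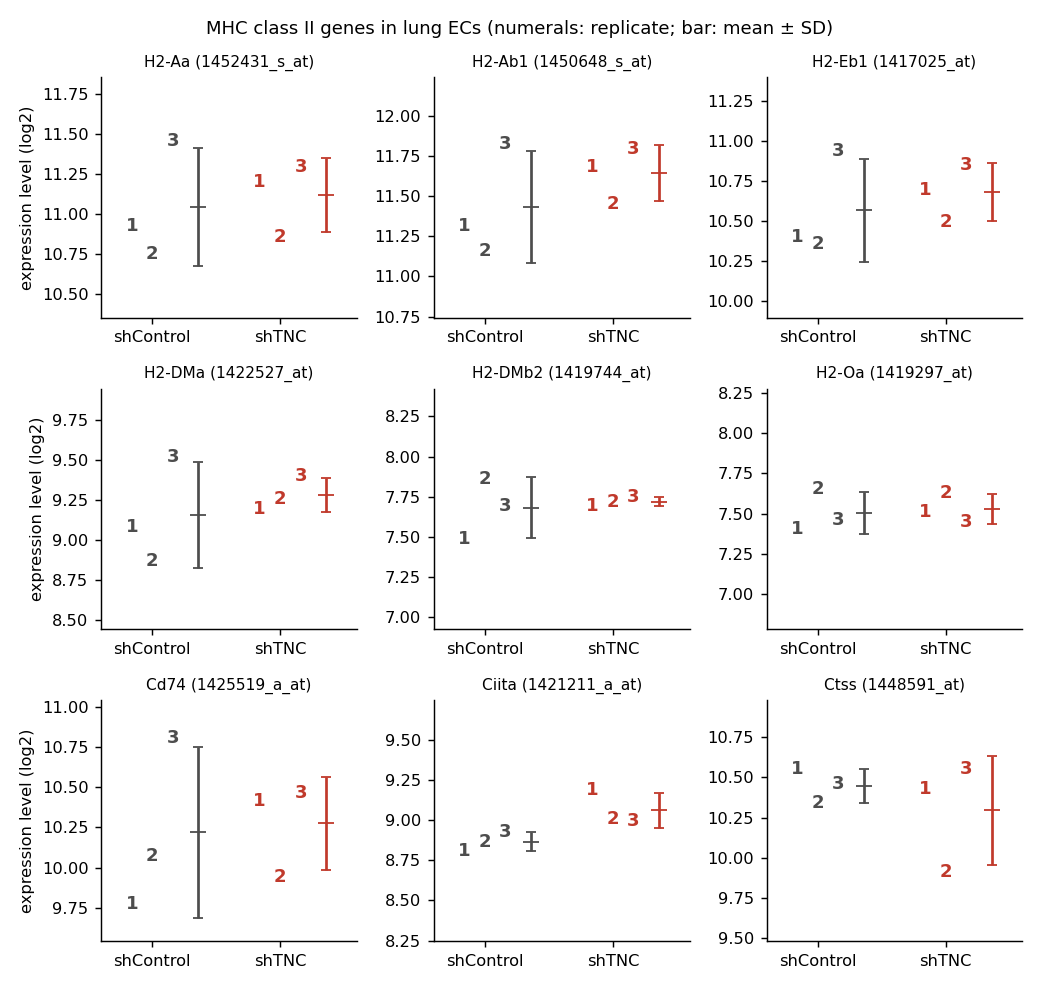
Expression level (log2, y axis) of the 9 MHC class II genes in lung ECs of the shControl and shTNC groups, 1 probe set per gene. Numerals are the replicates and bars the mean ± SD of 3 arrays. Replicate 3 of shControl is the highest array for H2-Aa, H2-Ab1, H2-Eb1, H2-DMa and Cd74, and the groups are apart only for Ciita.

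The classical chains were H2-Aa, the I-A alpha chain, H2-Ab1, the I-A beta chain, and H2-Eb1, the I-E beta chain. H2-Aa (1452431_s_at) had levels of 10.93, 10.75 and 11.46 in shControl replicates 1 to 3 and of 11.20, 10.86 and 11.29 in shTNC replicates 1 to 3. The groups overlapped, with the highest array and the lowest array both in shControl. The difference was 0.07 ± 0.19 (SE), with a limma adjusted p of 0.90.

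H2-Ab1 (1450648_s_at) had levels of 11.31, 11.16 and 11.82 in shControl and of 11.68, 11.45 and 11.80 in shTNC. All 3 shTNC arrays lay above shControl 1 and 2 and below shControl 3. The difference was 0.21 ± 0.18, with a 95% interval from -0.19 to 0.62 and a limma adjusted p of 0.64. The other probe sets of H2-Ab1 differed by 0.16 and 0.12, with overlapping groups.

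H2-Eb1 (1417025_at) had levels of 10.40, 10.36 and 10.93 in shControl and of 10.70, 10.49 and 10.85 in shTNC. Again the shTNC arrays fell between shControl 3 and the other shControl arrays. The difference was 0.11 ± 0.17, with a limma adjusted p of 0.81. H2-Ea, the I-E alpha chain gene that NOD-derived mice are known not to express, was near background on all 3 of its probe sets.

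The other probe sets of H2-Aa differed from the representative one. Probe set 1438858_x_at had levels of 9.01, 8.70 and 9.15 in shControl and of 9.25, 9.22 and 9.58 in shTNC. Here every shTNC array lay above every shControl array, by as little as 0.07 between shTNC 2 and shControl 3. The difference was 0.40 ± 0.15, with an unadjusted p of 0.025 and an adjusted p of 0.32 in limma. The brighter 1435290_x_at differed by 0.22 ± 0.20 with overlapping groups, and 1443783_x_at was near background at -0.11 ± 0.09. The suffixes s and x mark probe sets with probes that can match more than 1 transcript, so the values of H2-Aa and H2-Ab1 may hold signal from other transcripts, related or not.

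Cd74 encodes the invariant chain, and its probe set 1425519_a_at had levels of 9.78, 10.07 and 10.81 in shControl and of 10.42, 9.94 and 10.47 in shTNC. The shControl arrays spanned 1.03 on the log2 scale and enclosed all shTNC arrays. The difference was 0.06 ± 0.26, with a 95% interval from -0.53 to 0.65 and a limma adjusted p of 0.95. Its sign turned when any of 4 arrays was left out.

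For peptide loading, H2-DMa, the DM alpha chain (1422527_at), had levels of 9.08, 8.87 and 9.52 in shControl and of 9.19, 9.25 and 9.40 in shTNC. The shTNC arrays again lay within the shControl range, above replicates 1 and 2. The difference was 0.13 ± 0.16, with a limma adjusted p of 0.77. Its other probe set, 1459872_x_at, was near background and had the opposite sign, at -0.14 ± 0.11.

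H2-DMb2, a DM beta chain gene (1419744_at), was 7.48, 7.86 and 7.69 in shControl and 7.69, 7.71 and 7.75 in shTNC, just above background. The shTNC arrays lay close together inside the shControl range, and the difference was 0.04 ± 0.11. Its other probe sets were near background, at 0.13 ± 0.09 and -0.06 ± 0.09. A pair of probe sets that the annotation assigns to both H2-DMb2 and H2-DMb1, and which were therefore not counted as members, differed by 0.24 ± 0.14 and 0.04 ± 0.16. The first, 1418638_at, was highest in shTNC 2, at 8.40. The second and brighter, 1449580_s_at, was 9.54, 9.53 and 10.12 in shControl and 9.81, 9.81 and 9.69 in shTNC, highest in shControl 3. H2-Oa, the alpha chain of the DM inhibitor H2-O (1419297_at), was 7.41, 7.65 and 7.46 in shControl and 7.51, 7.63 and 7.44 in shTNC. The mean of H2-Oa lies just above the background level, but shControl 1, shControl 3 and shTNC 3 lie below it. The groups overlapped, with a difference of 0.02 ± 0.10.

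Ciita, the coactivator of the class II promoters, had the groups apart on 2 of its 3 probe sets. Probe set 1421211_a_at had levels of 8.81, 8.86 and 8.93 in shControl and of 9.19, 9.01 and 8.99 in shTNC. Every shTNC array lay above every shControl array, with 0.06 between the nearest, and the difference was 0.19 ± 0.09. The limma p was 0.067 before and 0.42 after adjustment.

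Probe set 1421210_at had levels of 8.18, 8.22 and 8.13 in shControl and of 8.64, 8.37 and 8.44 in shTNC. The groups were again apart, and the difference was 0.31 ± 0.10, or 1.24-fold, with a limma p of 0.014 before and 0.29 after adjustment. The third, 1447075_at, was 7.55, 7.32 and 7.44 in shControl and 7.44, 7.74 and 7.67 in shTNC. Its groups overlapped and the difference was 0.18 ± 0.11, at a level near the background limit. The difference of 1421211_a_at was above 0 under every alternative that used it, from 0.13 without shTNC replicate 1 to 0.23 without shTNC replicate 3. Its smallest limma adjusted p was 0.338, without shControl replicate 3. The mean of the 3 Ciita probe sets differed by 0.227, with a limma adjusted p of 0.263.

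In all, 3 of the 19 member probe sets, 2 of Ciita and 1 of H2-Aa, had groups that did not overlap with shTNC higher, against 8.92% of all probe sets, and 0 had shTNC lower, against 10.5%. For each of these 3 the exact two-sided permutation p over the arrays was 0.1, the smallest that 3 against 3 arrays allow.

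Ctss, which encodes cathepsin S, was the member gene with a lower mean in shTNC. Its probe set 1448591_at had levels of 10.55, 10.34 and 10.46 in shControl and of 10.43, 9.91 and 10.55 in shTNC. Only shTNC 2 lay below the shControl arrays, and the others were within their range. The difference was -0.15 ± 0.16, with a limma adjusted p of 0.72, and it was 0.04 without shTNC replicate 2.

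**Figure D3:**
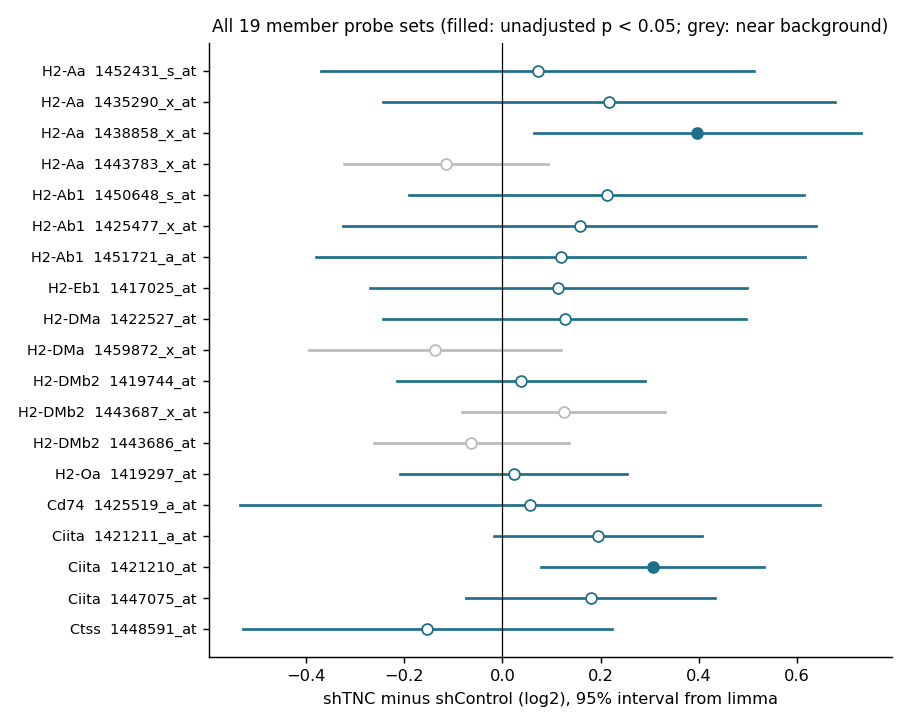
Difference of shTNC minus shControl (log2, x axis) for each of the 19 member probe sets, with 95% intervals from limma over 3 arrays in each group. The 2 filled points are those at an unadjusted p under 0.05, grey ones are near background, and 15 of the 19 lie above 0.

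Array by array, the result turned on which shControl array was the reference. Against shControl 1, shTNC arrays had 7 or 8 of the 9 members higher, with medians from 0.17 to 0.32. Against shControl 2 they had 5 to 7 higher, with medians from 0.10 to 0.40. Against shControl 3 they had only 2 or 3 higher, with medians from -0.37 to -0.026. The share of all genes higher in shTNC ranged from 39.8% to 49.1% over these 9 array pairs and was lowest against shControl 2, the array with the most distant overall profile, whose first principal component score was 43.6 where the others had -21.1 to 11.1.

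Without shControl replicate 3 the median difference of the 9 genes was 0.28, and 7 of the 19 member probe sets were higher at an unadjusted p under 0.05, against 8.01% of all probe sets in that fit. They belonged to H2-Aa, H2-Ab1, H2-Eb1, H2-DMa and Ciita. The smallest adjusted p among the members was then 0.22. Without shControl replicate 1 or 2 the median was 0.013 or 0.011, and it was 0.20 without shTNC replicate 2.

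The members did not move as 1 block across arrays. H2-Aa, H2-Ab1, H2-Eb1, Cd74 and H2-DMa moved together, with Pearson r from 0.72 to 0.97 over 6 arrays for their 10 gene pairs. With group means taken out r was 0.73 to 0.99, and without shControl 3 it was 0.50 to 0.98. These points share arrays, and probe sets of related chains can share targets.

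As a mean over H2-Aa, H2-Ab1, H2-Eb1 and Cd74, the arrays deviated from the mean of all 6 by -0.27, -0.29 and 0.38 in shControl and by 0.13, -0.19 and 0.23 in shTNC. The order from high to low was thus shControl 3, shTNC 3, shTNC 1, shTNC 2, shControl 1 and shControl 2, with the groups interleaved. Against the mean z-score of these 4 genes, Ciita had an r of 0.45, Ctss of 0.38, H2-DMb2 of 0.071 and H2-Oa of -0.50. H2-DMb2 and H2-Oa lay close to the background limit, where levels are coarse, so their r says little. Ciita was highest in shTNC 1, whereas the chains were highest in shControl 3.

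**Figure D4:**
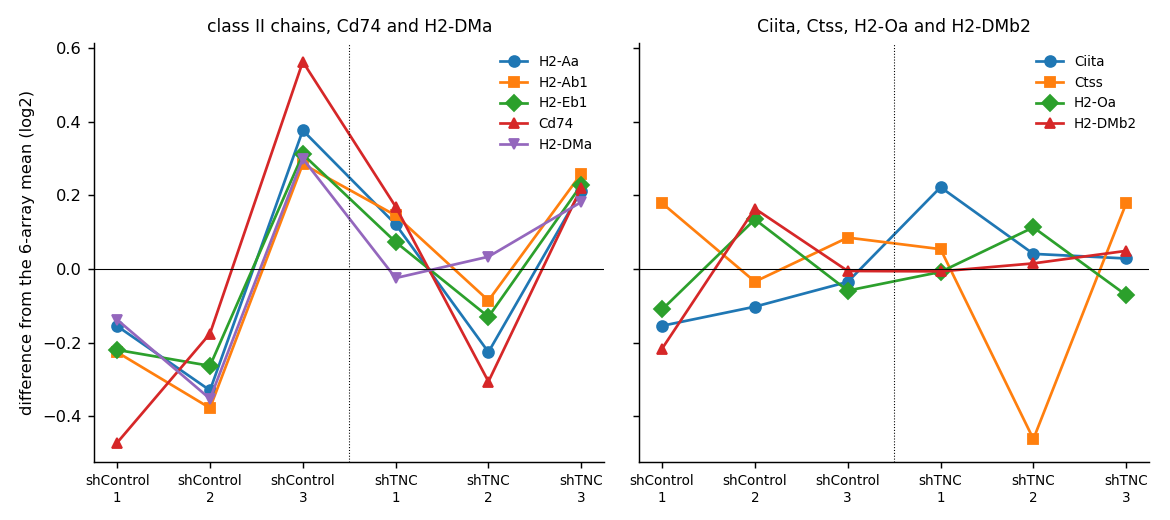
Deviation of each member from its own mean over the 6 arrays (log2, y axis), by array. Lines only join the values of 1 gene. The left panel holds H2-Aa, H2-Ab1, H2-Eb1, Cd74 and H2-DMa, which peak in shControl 3, and the right panel the other 4 members, which do not share that pattern. Of these, H2-Oa and H2-DMb2 lie close to the background limit.

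Over 13435 genes above background, those most like the z-score of the 4 chain genes were 1700123O20Rik, Ltf, Dlgap4, Fads2 and Phf14, with r from 0.976 to 0.995 over the 6 arrays. Ltf, which encodes the secreted iron-binding protein lactoferrin of neutrophil granules and glandular epithelium, had by far the widest range of the 5. Its levels were 7.95, 8.03 and 10.40 in shControl and 9.67, 8.10 and 9.74 in shTNC, with shControl 3, shTNC 1 and shTNC 3 high. As the gene was chosen for its likeness to the chains, this order is no further result. The difference between groups was 0.38 ± 0.68. The shControl arrays of Ltf spanned 2.44 on the log2 scale, against 0.62 for Fads2, a fatty acid desaturase gene, 0.31 for Phf14, and 0.17 or less for 1700123O20Rik and Dlgap4.

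Of 29 other names of the class II pathway that were listed, 26 genes were matched. Among them, 2 were higher and 1 lower at an unadjusted p under 0.05, against 4.54% and 7.12% of all genes, and 0 reached an adjusted p of 0.05 in limma. H2-Ob, the beta chain of H2-O (1440837_at), was 8.19, 8.01 and 7.95 in shControl and 8.21, 8.65 and 8.48 in shTNC. The groups did not overlap, with 0.02 between the nearest arrays, and the difference was 0.40 ± 0.13, with an adjusted p of 0.29. A probe set that H2-Ob shares with Gm20506 differed by -0.11 ± 0.14. Marchf8, a membrane ubiquitin ligase that can remove class II from the cell surface, was 10.76, 10.64 and 10.63 in shControl and 10.92, 10.95 and 10.82 in shTNC, a difference of 0.22 ± 0.09 with the groups apart and an adjusted p of 0.35.

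Irf8, a transcription factor of dendritic cells, B cells and macrophages, was the one lower gene, at -0.41 ± 0.16 with overlapping groups, while its other probe set differed by -0.08 ± 0.12. The receptor for interferon gamma gave mixed values. Ifngr1, its ligand-binding chain, differed by 0.18 ± 0.08, and Ifngr2, its signalling chain, by -0.17 ± 0.08 on 1 probe set and by 0.21 ± 0.10 on the other. Rfxank, a subunit of the RFX complex that binds the X box, differed by -0.22 ± 0.11, and by -0.25 ± 0.14 and -0.07 ± 0.10 on its other probe sets. The other RFX subunits, Rfx5 and Rfxap, each differed by -0.01, with SE of 0.11 and 0.09. A second Rfxap probe set, 1455303_at, went the other way, at 0.41 ± 0.15 with the groups apart. Its limma p was 0.026 before and 0.325 after adjustment. None of the probe sets of Ifngr1, Ifngr2 and Rfxank had an unadjusted p under 0.05, and Ifng, the gene for interferon gamma itself, was near background. Second probe sets of the cathepsin genes Ctsh (1443814_x_at, 0.38 ± 0.15) and Ctsb (1448732_at, 0.19 ± 0.08) were higher at that level. Another of Ctsb (1444987_at, -0.31 ± 0.11) was lower.

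Markers of endothelial and other cells were set beside the class II chains by array. All 10 pan-endothelial markers were above background, with a median difference of -0.013 and summed linear levels of 118000 to 124000 in shControl and 119000 to 122000 in shTNC. Of these, 4 had a positive r to the chains, the highest 0.68 for Erg, with a median of -0.20 over the list. Tie1, Pecam1 and Esam had r of -0.89, -0.88 and -0.87, but their shControl arrays spanned only 0.08, 0.11 and 0.19 on the log2 scale. Of 6 general capillary markers 3 had a positive r, from -0.75 for Aplnr to 0.825 for Kit. Their sums were apart between the groups, at 64900 to 65900 in shControl and 67300 to 67500 in shTNC. Their median difference was 0.077, and 0 had an unadjusted limma p under 0.05. Among 5 aerocyte markers 1 had a positive r, with r from -0.87 for Apln to 0.28 for Tbx2. The aerocyte sums were 27400 to 32100 in shControl and 29200 to 31100 in shTNC. Of the 9 alveolar type 2 and airway epithelial markers listed, 8 were matched and all 8 were above background. Their summed linear level was 15500 to 21200 in shControl and 10500 to 24400 in shTNC, and 7 of the 8 had a positive r to the chains, from -0.42 for Abca3 to 0.79 for Cdh1. Sftpb, a surfactant protein gene, was 9.70, 10.15 and 10.51 in shControl and 10.14, 8.92 and 10.85 in shTNC. Its highest arrays were shTNC 3 and shControl 3, which were also the highest for the chains, but its lowest was shTNC 2, and shControl 2, the lowest for the chains, was near the middle.

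Markers of blood cells gave a less uniform picture. Ptprc, which encodes the CD45 used to exclude blood cells, was 8.27, 7.65 and 8.23 in shControl and 8.56, 7.84 and 8.73 in shTNC, above background on average, with an r of 0.68 to the chains. Itgam, the gene for the other excluded blood cell marker CD11b, was near background. Of 13 dendritic cell markers, 9 were above background and Flt3, Ccr7, Cd86 and Clec10a near it, with summed levels of 22400 to 25100 in shControl and 22900 to 23600 in shTNC and 5 with a positive r. Most of each sum came from Cst3, Fscn1 and Zbtb46, with shControl means of 13.46, 13.05 and 11.09, so the sums say little about the other markers. Of 7 B cell markers, 3 were above background and Ms4a1, Cd79b, Blk and Cr2 near it, with summed levels of 1130 to 1280 and 1060 to 1140 and 1 positive r.

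Of 17 macrophage and monocyte markers, 13 were above background and Adgre1, Itgam, Ccr2 and Siglecf near it. Their sums were 17700 to 18300 in shControl and 14600 to 17800 in shTNC, and 9 had a positive r, the highest 0.71 for Lyz2. Most of each sum came from Mertk and Lyz2, with shControl means of 12.60 and 12.22. At an unadjusted limma p under 0.05, 0 of the 17 were higher and 4 lower, against 4.54% and 7.12% of all genes. The smallest adjusted p among the 17 was 0.22. Lower calls were not particular to this list. At the same level 1 of the 13 dendritic cell markers was higher and 3 lower, and 0 of the 7 B cell markers were higher and 2 lower. The T and innate lymphoid cell list had 1 higher and 0 lower, and the neutrophil list 0 of either. Of 4 neutrophil markers matched, all had a positive r, up to 0.80 for S100a9, and Mpo was near background, with sums of 1040 to 1260 and 974 to 1170. Of 7 T and innate lymphoid cell markers, Gata3 and Rora were above background and Cd3e, Cd3g, Cd3d, Il7r and Nkg7 near it, with 3 positive r. Sums were 3120 to 3670 in shControl and 3890 to 4090 in shTNC, and most of each came from Gata3 and Rora. Gata3 differed by 0.47 ± 0.10, with the groups apart and a limma adjusted p of 0.20, and Rora by 0.22 ± 0.14. The 5 markers near background all had a lower mean in shTNC.

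Among stromal markers, all 6 of fibroblasts were above background, with sums of 9950 to 12900 in shControl and 11600 to 13900 in shTNC and 2 positive r. All 5 of pericytes and smooth muscle were above background, with sums of 2880 to 3190 and 3250 to 4070 and 3 positive r. These correlations rest on 6 arrays, and the part of other cells in the class II values was not tested. The share of all genes with a positive r was not counted, so the counts of positive r have no base rate beside them.

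**Figure D5:**
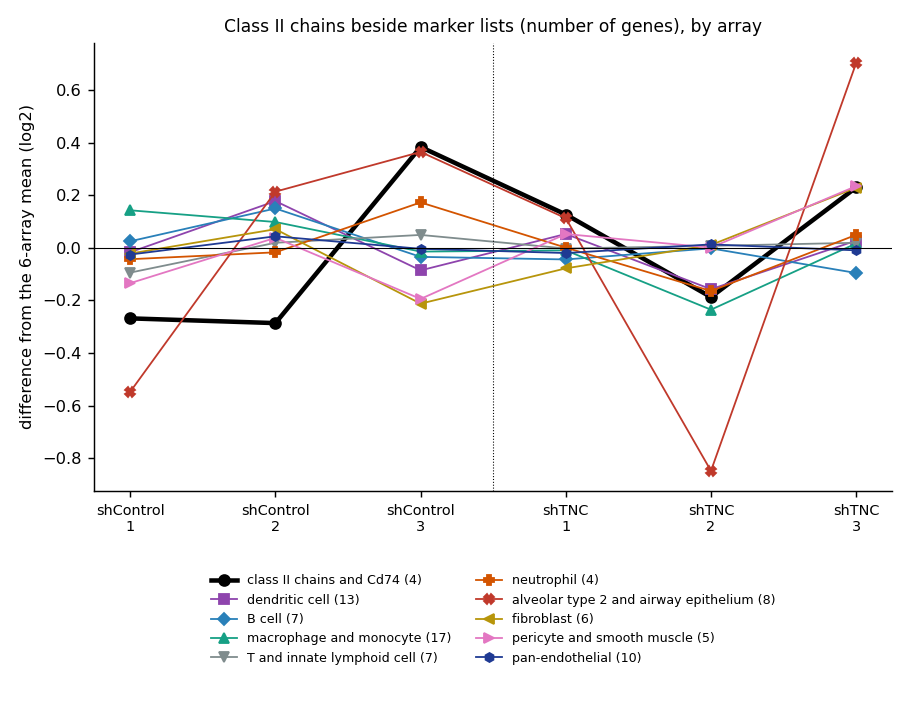
Deviation from the mean over the 6 arrays (log2, y axis) of the class II chains and Cd74 (black) beside 9 marker lists, by array, each as the mean of the number of genes given in brackets. Lines only join the values of 1 list. The epithelial list is lowest in shTNC 2, at -0.85, and highest in shTNC 3, at 0.70, while the pan-endothelial list stays between -0.025 and 0.044.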

How the data were processed

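Total RNA of FACS-sorted lung ECs was labelled from 2 ng per sample with a 3′ IVT kit and hybridised to Affymetrix mouse arrays, 3 for shControl and 3 for shTNC. Each probe set has a log2 level in the deposited table, and the authors state that RMA normalization was run in Chipster. Many low values were tied, with 5773 to 6883 distinct values on an array, so whether the levels are RMA output was not settled, and low levels are coarse. The sorted values of the 6 arrays differed by at most 0.070 at any rank, no value was missing, and raw array files were not used. With 3 arrays in each group, their number limits precision. All 45101 probe sets, including 64 control probe sets, entered the fit. The platform annotation gave 34958 probe sets 1 symbol, 932 several and 9211 none. The 2 probe sets that carry H2-DMb2 together with H2-DMb1 were left out of the members.

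The shTNC and shControl arrays were compared by two-sided tests with lmFit and eBayes of limma 3.58.1 (R 4.3.3). P-values were adjusted by the Benjamini-Hochberg method across the whole table, and exact two-sided permutation tests were run in SciPy 1.17.1. The fit was tested on simulated data. Alternatives were quantile normalization, median centring, a background filter, array weights, robust eBayes with a trend on intensity, 1 value per gene (the brightest probe set or the mean), a replicate block, and leaving out each array.

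The rule for named genes took all member probe sets, up to 6 pathway genes with the smallest p, the 5 genes most like the chains, and markers. Members and lists were chosen with earlier results of these data known. H2-Ea, Rfx5, Rfxap, Ctsh, Ctsb and second probe sets were added after their values were seen. Marker genes without a match, such as Lamp3, were not analysed here. Promoter sequences are RefSeq's, build GRCm38.p6.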

Additional observations from a re-analysis of the deposited data

How the results depend on the processing

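The median difference of the 9 genes, 0.072, stayed above 0 in all 14 alternatives, at 0.011 to 0.28 when single arrays were left out. No member passed an adjusted p of 0.05 in any of them. Member probe sets higher at an unadjusted p under 0.05, 2 with all arrays, numbered 0 with the brightest probe set per gene, 1 with the mean of a gene's probe sets, and 1 to 7 without single arrays (1 without shControl 2 or shTNC 3, 7 without shControl 3), which tests 9 or 19 values. Probe sets called over the whole table, 0 with all arrays, numbered 1 with the brightest probe set, 1 with the mean, 9 with an intensity trend and robust eBayes, and 0 to 4 without single arrays (2 without shControl 1, 4 without shControl 3). Of 210 values for 15 single genes, 196 kept their sign and side of the threshold and 14 changed sign, none of them past the threshold. Cd74 ranged from -0.17 without shControl 1 to 0.35 without shControl 3, and H2-Aa from -0.074 without shControl 2 to 0.28 without shControl 3. H2-DMa ranged from -0.018 without shControl 2 to 0.31 without shControl 3, and was -0.0048 with the mean of its probe sets. H2-DMb2 ranged from -0.060 to 0.13 without shControl 1 and 2, and H2-Oa from -0.028 without shTNC 2 to 0.096 without shControl 2. Ctss ranged from -0.28 without shTNC 3 to 0.040 without shTNC 2, and Ifngr2 was 0.020 with the mean of its probe sets. The cause of these changes was not tested. Same-numbered arrays had deviations that correlated at -0.085, 0.041 and 0.10, and other pairs at -0.11 to 0.074. Values this small over all probe sets cannot settle whether same-numbered arrays belong together. With the replicate number as a block, 0 probe sets were called, 2 member probe sets were higher and the median difference was 0.072. The SE then fell for every member gene except Ciita, from 0.192 to 0.116 for H2-Aa, and rose from 0.092 to 0.105 for Ciita.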
